A study of Homo sapiens with 2 samples.

Results

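Mitochondrial DNA was examined in the 2 whole-genome bisulfite sequencing (WGBS) libraries of the study through all 439 CpGs listed on chrM, of 23654390 CpGs listed for Neg and 16135283 listed for dCas9+3A+HOXA5 on chromosomes 1 to 22, X, Y and M. The CpGs were taken by chromosome name alone, and the same 439 positions were listed in both libraries. Both libraries came from HEK293T cells, a human embryonic kidney line that is kept in culture, and each group was 1 library. Neg was the negative control, which the study describes as cells that received no construct, although its label carries the same text of 30 days of infection as the other library. dCas9+3A+HOXA5 was made from fluorescent cells sorted after lentiviral transduction with a dead Cas9 carrying the SunTag peptide array, DNMT3A fused to an antibody fragment that binds the array, and a HOXA5 guide RNA. DNMT3A is a DNA methyltransferase that adds new methyl groups to CpGs. With 1 library per group, there was no replicate spread to hold a difference against, so each test is on the pair of libraries and says nothing of the conditions as such.

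The mitochondrial genome is a small circular molecule present in many copies per cell. It carries genes for ribosomal RNAs, transfer RNAs and proteins of the respiratory chain, and a control region from which replication and transcription start. It is packed by TFAM rather than by histones, and it lacks the dense CpG methylation of nuclear DNA. Bisulfite converts unmethylated cytosine, which is then read as T, so that C reads at a CpG come from methylated cytosine, from hydroxymethylated cytosine and from cytosine that escaped conversion. Because mitochondrial CpGs are taken to be almost free of methylation, their share of C reads is often read as a measure of conversion. Here this share, the C reads divided by the C or T reads in percent, is called the unconverted share, without a statement on which of these sources gave the C. Parts of the mitochondrial genome have also been copied into the nuclear chromosomes during evolution, and such nuclear copies can carry almost the same letters.

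The closeness of nuclear copies to mitochondrial DNA is shown by their sequences, in which capitals mark each CG. In the nuclear part of GRCh37, 373 stretches with 36059 bases in all matched the reference mitochondrial sequence over at least 50 bases once C was read as T, or G as A. The longest run of them lay on chromosome 1 between 564461 and 570304, with 5796 matching bases. Among the stretches of at least 60 bases, that with the most reads on each of the 3 chromosomes of deepest stretches is shown over 60 bases around its deepest CpG, above the same stretch of the mitochondrial sequence. The pair for chromosome 1 had 0 mismatches, and those for chromosome 5 and chromosome 11 had 2 each.
chr1:566430-566489, nuclear, plus strand: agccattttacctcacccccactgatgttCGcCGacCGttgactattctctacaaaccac
reference mitochondrial sequence, bases 5880 to 5939, plus strand: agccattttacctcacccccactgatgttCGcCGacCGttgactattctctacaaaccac
chr5:134263453-134263512, nuclear, plus strand: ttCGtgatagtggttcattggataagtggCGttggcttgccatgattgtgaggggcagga
reference mitochondrial sequence, bases 10974 to 11033, minus strand: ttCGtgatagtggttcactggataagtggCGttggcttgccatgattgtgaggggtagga
chr11:10530839-10530898, nuclear, plus strand: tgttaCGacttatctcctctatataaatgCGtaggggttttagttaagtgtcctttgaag
reference mitochondrial sequence, bases 1508 to 1567, minus strand: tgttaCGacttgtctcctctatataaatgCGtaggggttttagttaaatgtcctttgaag

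The mitochondrial sequence in this reference has 16569 bases and the listed positions do not follow its numbering. Of the 439 listed positions, 435 fell on one of its CG sites only when shifted by 0, 1 or 2 bases, with the shift changing along the molecule, and 4 fell on none (262, 8860, 11018 and 15933). Positions on chrM are therefore given as listed by the files for hg19, and no sequence was read at them. Gene names beside a position follow the textbook order of genes on the molecule and are left out near a gene boundary.

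Across the whole molecule, 6.98% of reads were unconverted in Neg (54768 of 784891 reads, 95% Wilson interval 6.92 to 7.03%) and 4.25% in dCas9+3A+HOXA5 (28651 of 673837 reads, 4.20 to 4.30%). The share was thus 2.73 percentage points lower in dCas9+3A+HOXA5, 0.609 times the Neg value. Fisher's exact test, two-sided and on the summed reads, gave −log10 p of 1110 for the pair of libraries. Reads of the same fragment and PCR duplicates are not independent molecules, so the intervals and this test cover counting error only. The direction was opposite to that at the 1273762 autosomal CpGs with 5 or more reads in both libraries. There 64.2% of summed reads were C in Neg against 72.5% in dCas9+3A+HOXA5, which is 8.34 points higher. This base leaves out autosomal CpGs with fewer reads, and the median difference over all CpGs tested was 0 points.

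**Figure D1:**
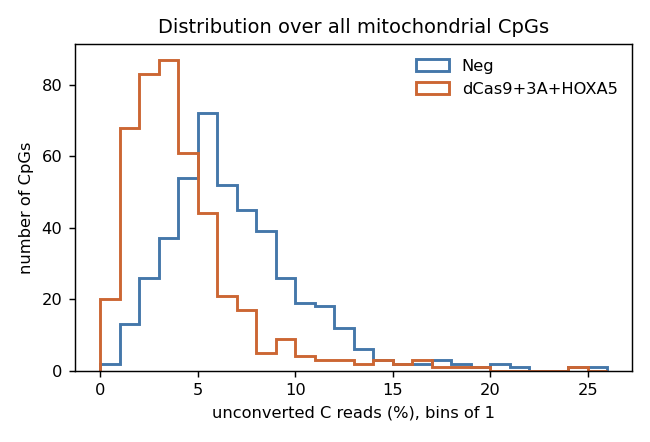
Number of mitochondrial CpGs (vertical axis) by unconverted share in percent, in bins of 1 percentage point (horizontal axis), for Neg (blue) and dCas9+3A+HOXA5 (orange). The median CpG lay at 6.21% in Neg and at 3.54% in dCas9+3A+HOXA5, and both distributions have a thin tail to about 25%.

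Single CpGs varied several-fold within each library. In Neg the unconverted share ran from 0.877% to 25.5%, with a median of 6.21% and quartiles of 4.53% and 8.56%. In dCas9+3A+HOXA5 it ran from 0.457% to 25%, with a median of 3.54% and quartiles of 2.32% and 5.20%. No CpG was at 0% in either library. Shares over 10% were found at 72 CpGs in Neg and at 24 in dCas9+3A+HOXA5, and shares under 1% at 2 and 20 CpGs.

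The order of the CpGs was largely shared by the libraries. Across the 439 CpGs, the unconverted share in Neg correlated with that in dCas9+3A+HOXA5 with a Pearson r of 0.785 and a Spearman rho of 0.788. Of the 44 CpGs with the highest share in each library, 25 were the same, which is 56.8% of each list. These values describe CpGs that share sequence context and a reference and are not independent replicates.

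The distribution along the molecule was followed in 1-kb pieces counted from position 1. All 17 pieces had a lower unconverted share in dCas9+3A+HOXA5, and all 17 passed an adjusted p of 0.05 (Fisher's exact test on summed reads, Benjamini-Hochberg over 67399 1-kb tiles of the genome; largest adjusted p 1.43e-20). Over all tiles, 2.34% were called lower and 6.24% higher, with a median difference of 2.69 points. A limit of 20 points with an adjusted p under 0.01, which 1.04% of all tiles passed as lower and 2.53% as higher, could not be passed as lower by any piece, since none was above 9.06% in Neg. A nuclear tile had a median of 50 reads in Neg against 45 in dCas9+3A+HOXA5, whereas the mitochondrial pieces held 22146 to 74197 reads in a library, so that far smaller differences pass the threshold on the mitochondrial molecule.

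The highest share in Neg was that of the first piece, positions 1 to 1000, which covers part of the control region and the start of the 12S rRNA gene. It had 9.06% in Neg (8.81 to 9.33%) and 4.73% in dCas9+3A+HOXA5 (4.54 to 4.94%). The rest of the control region, from position 16001 to the end, was among the lowest, with 4.49% in Neg against 2.65% in dCas9+3A+HOXA5. The ends of the linear numbering meet on the circle, so that both of these pieces hold part of the same region.

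The lowest share in Neg was found between 10001 and 11000, over genes of complex I subunits such as ND3 and ND4, with 4.16% in Neg against 2.72% in dCas9+3A+HOXA5. The strongest relative difference was that of positions 4001 to 5000, over parts of ND1 and ND2, which encode further subunits of complex I. There 5.90% of reads were unconverted in Neg against 3.01% in dCas9+3A+HOXA5, a ratio of 0.510. The weakest was that of positions 14001 to 15000, which hold ND6 and the start of CYB, the gene of cytochrome b, with 7.97% and 5.83%, a ratio of 0.731. Positions 5001 to 6000 had the highest share in dCas9+3A+HOXA5, 6.0%, against 8.45% in Neg. The other 11 pieces ran from 5.46 to 8.64% in Neg and from 3.36 to 5.42% in dCas9+3A+HOXA5.

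**Figure D2:**
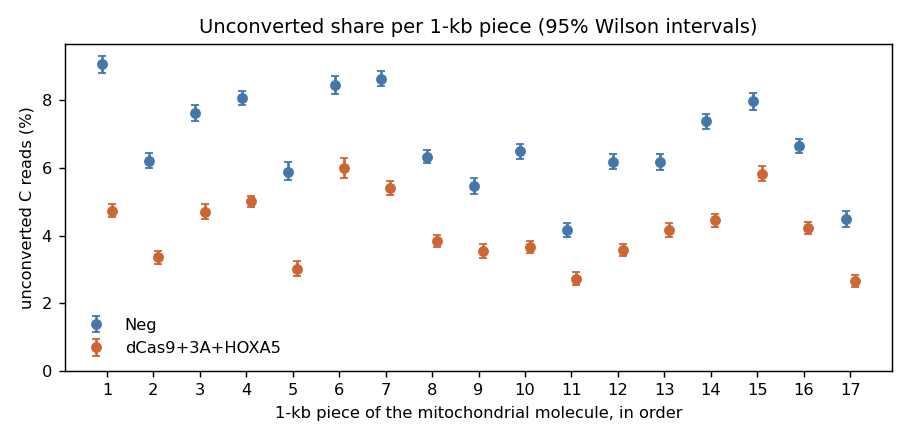
Unconverted share in percent (vertical axis) of each 1-kb piece in order along the molecule (horizontal axis), for Neg (blue) and dCas9+3A+HOXA5 (orange), as points with 95% Wilson intervals. Each of the 17 pieces is lower in dCas9+3A+HOXA5, and the pattern of high and low pieces is similar in the libraries (Pearson r 0.899 over the 17 pieces).

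In finer pieces the direction was not uniform. Of 33 tested 500-bp pieces, 30 were called lower in dCas9+3A+HOXA5 and 1 was called higher, the piece from 14001 to 14500, where 6 CpGs had 7.63% in Neg against 9.74% in dCas9+3A+HOXA5 (exact test, adjusted p = 1.62e-05). The piece called higher held position 14226, flagged as a possible C-to-T variant, meaning G in under 0.9 of opposite-strand reads in either library. Position 14226 had 89.8% G in dCas9+3A+HOXA5. The flag rests on this limit alone. A T in the DNA would add T reads and so lower the unconverted share. Whether the flagged positions are variants was not tested. Positions 14160, 14226 and 14384 of this piece had over 2% A on the opposite strand in both libraries. Over all 54786 tiles of 500 bp, 2.52% were called lower and 6.05% higher. All 9 pieces of 2 kb were called lower, where 2.08% of all such tiles were called lower and 6.7% higher. The pieces from 5001 to 5500 (7.07% and 6.45%, exact test, adjusted p = 0.155) and from 12001 to 12500 (4.36% and 4.04%, exact test, adjusted p = 0.492) did not pass.

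As single sites, 407 of the 439 CpGs were lower in dCas9+3A+HOXA5 and 32 were higher. The median difference was -2.66 points (quartiles -3.93 and -1.43, range -12.9 to 10.3), against a median of 0 points over all 1319911 CpGs tested. By Fisher's exact test with Benjamini-Hochberg adjustment over all of these, 138 mitochondrial CpGs were called lower, 2 were called higher and 299 were not called. Over all CpGs tested, 0.0133% were called lower and 0.0228% higher. The share called lower is mostly that of the mitochondrial CpGs themselves, since 37 nuclear CpGs (0.0028%) were called lower and 299 (0.0227%) higher. The counts moved with the read minimum. With 20 or more reads, 279 mitochondrial CpGs were called lower and 9 higher, where 6.38% and 8.13% of the 5780 CpGs tested were called, or 1.69% and 8.63% of the nuclear ones. With a minimum of 1 read, 102 were called lower and 1 higher, where 0.000776% and 0.00103% of 14699566 CpGs were called, with 12 nuclear CpGs among those lower. Without possible C-to-T variants the counts were 138 and 1, where 0.0144% and 0.0232% of all CpGs were called. The limit of 20 points, which 0.000455% of all CpGs passed as lower and 0.00811% as higher, was within reach as a lower value at only the 5 mitochondrial CpGs above 20% in Neg. The nuclear CpGs had a median of 7 reads in Neg against 6 in dCas9+3A+HOXA5, so these background shares are also set by their depth.

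The 5 CpGs with the smallest p-values were all lower in dCas9+3A+HOXA5 than in Neg. At position 16497, in the control region, 130 of 3035 reads were unconverted in Neg (4.28%) and 30 of 3165 in dCas9+3A+HOXA5 (0.948%; exact test, adjusted p = 5.96e-13). At position 96, on the other side of the control region, the share fell from 12.1 to 4.34% (exact test, adjusted p = 4.87e-12). In CYB it fell from 7.12 to 1.86% at position 15355 and from 9.63 to 3.99% at position 14846 (exact test, adjusted p = 6.53e-13 and 5.55e-12). At position 13240 in ND5, which encodes a subunit of complex I, it fell from 7.33 to 1.93% (exact test, adjusted p = 4.87e-12).

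The CpG with the highest share was the same in both libraries. At position 2820, in the 16S rRNA gene, 478 of 1873 reads were unconverted in Neg (25.5%, 23.6 to 27.5%) and, for dCas9+3A+HOXA5, 338 of 1354 (25%, 22.7 to 27.3%). These intervals overlap, and the difference of -0.557 points did not pass (exact test, adjusted p = 1). Positions 3531 and 3550 in ND1 were also high in both, with 20.5% and 21.2% in Neg. In dCas9+3A+HOXA5 they had 17.3% and 18.4% (exact test, adjusted p = 0.658 and 0.914). Both were flagged as possible C-to-T variants, with G in 88.7% and 87.6% of opposite-strand reads in dCas9+3A+HOXA5.

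Other high CpGs of Neg passed the test. At position 6021, in COX1, the gene of the largest subunit of cytochrome c oxidase, the share fell from 24.1 to 14.9% (356 of 1476 and 88 of 592 reads, exact test, adjusted p = 0.0114). At position 3688, in ND1, it fell from 19.7 to 11.7% (exact test, adjusted p = 1.14e-06). In contrast, position 5353 in ND2 had 14.0% in Neg against 16.3% in dCas9+3A+HOXA5 (exact test, adjusted p = 0.698).

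The 2 CpGs called higher were position 7131 in COX1 and position 14160, which are named because of this call. The first had 96 of 1018 unconverted reads in Neg (9.43%) and 58 of 294 in dCas9+3A+HOXA5 (19.7%; exact test, adjusted p = 0.0179), and its depth in dCas9+3A+HOXA5 was 0.192 times the mean of the molecule. Its opposite strand had G in 88.8% of reads in dCas9+3A+HOXA5, so it was left out with the possible C-to-T variants, and with a minimum of 1 read it did not pass (exact test, adjusted p = 0.199). Position 14160 had 217 of 2587 (8.39%) and 388 of 3053 (12.7%; exact test, adjusted p = 0.000983) and passed under each of these settings and with 20 or more reads.

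The files also give the reads of the opposite strand at each CpG, which carry G where the DNA has C and A where the DNA has T, so that bisulfite does not alter them at that base. Position 11018 had A in place of G in most of these reads, with G in 6.75% of 711 reads in Neg and 3.31% of 665 in dCas9+3A+HOXA5. At position 15933, G was found in 30.5% of 2043 and 32.7% of 1377 reads. Both positions are among the 4 that matched no CG of the reference. The choice of denominator decided their value: at position 11018 the unconverted share was 5.69% in Neg against 2.95% in dCas9+3A+HOXA5, whereas the deposited fraction, whose denominator is corrected by the opposite strand, was 84.2% and 89.0%.

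Over the other 437 CpGs, the A share of the opposite strand was 0.734% in Neg against 0.942% in dCas9+3A+HOXA5, with medians of 0.244% and 0.194%. At autosomal CpGs the A share was higher in both and lay in the other direction, at 1.44% and 1.10%. Among the mitochondrial CpGs it was higher where the unconverted share was high. The 44 CpGs with the highest unconverted share had 2.33% A in Neg, against 0.566% at the other 393. In dCas9+3A+HOXA5 the same comparison gave 5.14% and 0.527%. Across the 437 CpGs, the A share and the unconverted share had a Spearman rho of 0.25 (Pearson r 0.408) in Neg and of 0.416 (Pearson r 0.685) in dCas9+3A+HOXA5, a description over CpGs of the same reads.

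At CpGs with more A on the opposite strand, the shares of the libraries lay closer together, a description for which no test was made. At 32 CpGs with over 2% A in both libraries, a limit set after the values were seen, 11.2% of reads were unconverted in Neg against 10.4% in dCas9+3A+HOXA5. At the other 405 CpGs the shares were 6.63% and 3.68%. Of the 138 CpGs called lower, 3 were among the 32 and 135 among the 405, and both CpGs called higher were among the 32. The 32 include positions 2820, 3531, 3550 and 5353. Whether the 2 readouts share a source was not tested.

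**Figure D3:**
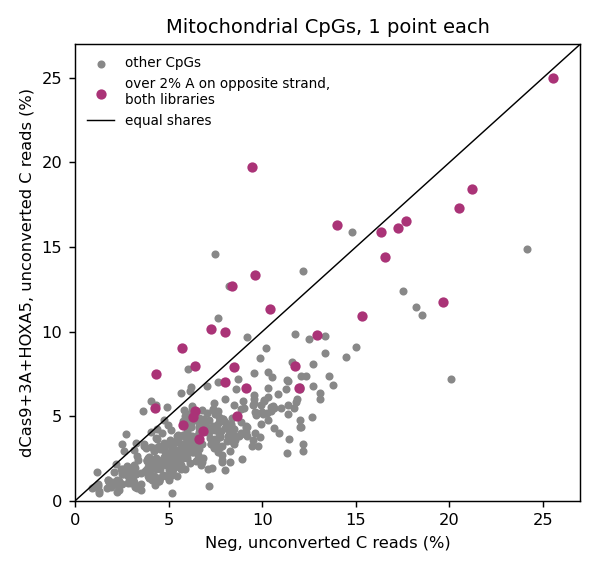
Unconverted share in percent of each mitochondrial CpG in Neg (horizontal axis) and in dCas9+3A+HOXA5 (vertical axis), with the line of equal shares. Grey points are mostly below the line, whereas the 32 CpGs with over 2% A on the opposite strand in both libraries (purple) lie around it, with 11 of them above.

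Adjacent CpGs were compared by their distance. For 114 pairs of adjacent CpGs at most 10 bases apart, the shares correlated with a Pearson r of 0.650 in Neg against 0.417 in dCas9+3A+HOXA5, and the median gap within a pair was 0.963 and 0.769 points. For 208 pairs 11 to 50 bases apart, r was 0.476 and 0.425, so that in dCas9+3A+HOXA5 it was not below that of the closer pairs. For 116 adjacent pairs more than 50 bases apart, r was 0.205 and 0.0801 and the median gap 2.12 and 1.73 points. Close CpGs are read on the same fragments, so these values do not rest on separate reads. The 193 CpGs with a neighbour within 10 bases had a summed share of 7.75% in Neg against 4.54% in dCas9+3A+HOXA5, those with one at 11 to 50 bases had 6.54% and 4.03%, and the 40 CpGs with no neighbour within 50 bases had 5.47% and 4.12%.

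The depth of the mitochondrial CpGs was far above that of nuclear ones. A mitochondrial CpG had a mean of 1788 C or T reads in Neg (median 1696, range 94 to 3729) and 1535 in dCas9+3A+HOXA5 (median 1485, range 55 to 3514). The mean over listed autosomal CpGs was 3.81 and 2.9 reads. Mitochondrial depth relative to the autosomes was 469 in Neg against 529.8 in dCas9+3A+HOXA5, a ratio of 1.13 between the libraries. This base counts only CpGs that a library lists, of which dCas9+3A+HOXA5 has fewer. Over the autosomal CpGs listed in either library, with 0 reads where a library lists none, relative depth was 498 in Neg against 819.7 in dCas9+3A+HOXA5, a ratio of 1.65, and mitochondrial CpGs held 0.867% and 1.42% of all summed reads. With medians in place of means the ratio was 1.31, and with each autosome as the base in turn it ran from 1.0 to 1.32. More mitochondrial molecules per cell and other yields or alignment of mitochondrial reads cannot be told apart by these values, and there was no replicate to give the error of the ratio. Across the CpGs, depth and unconverted share had a Spearman rho of 0.0447 in Neg and -0.00223 in dCas9+3A+HOXA5.

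Depth along the molecule followed a similar course in the libraries (Pearson r 0.891 over the 439 CpGs), with a coefficient of variation of 38.5% in Neg against 49.0% in dCas9+3A+HOXA5. By reads of both libraries together, the deepest CpGs were position 16456 in the control region, with 3557 reads in Neg against 3485 in dCas9+3A+HOXA5, and positions 13643 (3460 and 3514 reads) and 12763 (3729 and 3243 reads) in ND5. The shallowest by the same sum were position 16567 near the end of the linear sequence (94 and 138 reads), position 2204 in the 16S rRNA gene (258 and 149 reads) and position 7463 (292 and 177 reads).

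The libraries parted in depth over certain stretches. Between 5751 and 6000, mean depth was 1792 reads in Neg against 719 in dCas9+3A+HOXA5, a ratio of 0.401, and between 6001 and 6250 it was 1273 and 538.1 reads, a ratio of 0.423. The windows from 4001 to 4250 and from 5501 to 5750 had ratios of 0.434 and 0.442. At position 6129 in COX1, chosen after its value was seen, 679 reads in Neg stood against 55 in dCas9+3A+HOXA5. From 11001 to 12000, by contrast, the depth was 1620 in Neg against 1704 in dCas9+3A+HOXA5. The unconverted share in the windows of low ratio was also lower in dCas9+3A+HOXA5, with 9.42% against 5.04% between 5751 and 6000. That window spans bases 5880 to 5939 of the reference mitochondrial sequence, apart from the small shift in numbering. These bases are printed above as identical to the chromosome 1 copy. Listed positions 5910, 5913 and 5917 lie there, with depth ratios of 0.353, 0.294 and 0.260. At the nuclear CpG 566459, 1353 reads in Neg stood against 7 in dCas9+3A+HOXA5. How reads matching both places were assigned was not tested.

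**Figure D4:**
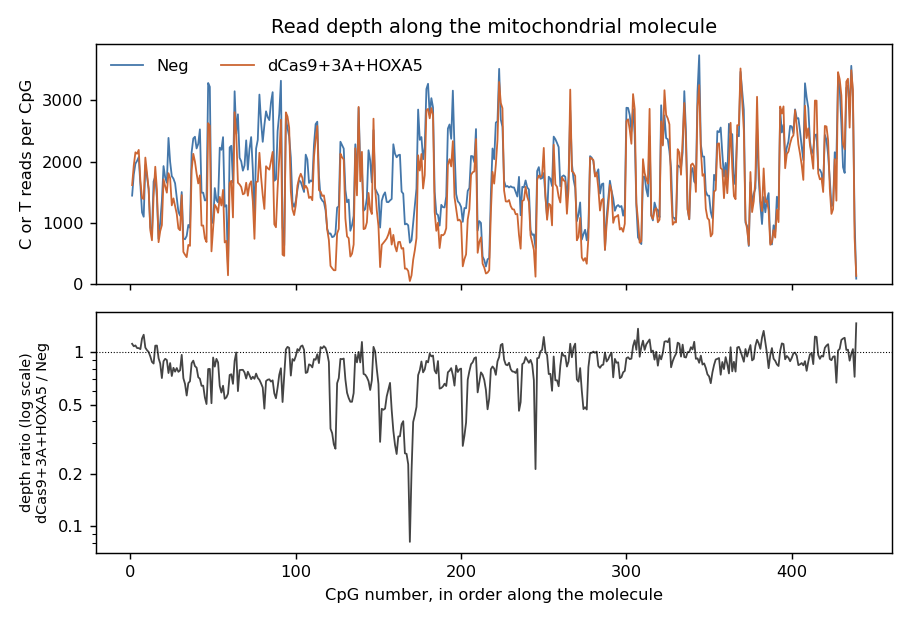
Top, C or T reads per CpG (vertical axis) for the mitochondrial CpGs in order along the molecule (horizontal axis) in Neg (blue) and dCas9+3A+HOXA5 (orange). Bottom, ratio of the depth in dCas9+3A+HOXA5 to that in Neg on a log scale, with a dotted line at equal depth, which falls furthest between CpGs 100 and 200, where position 6129 lies (679 against 55 reads).

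The nuclear copy of mitochondrial DNA on chromosome 1 was read very differently in the libraries. The mean was 309 reads over 157 CpGs listed for Neg and 10.6 reads over 141 CpGs listed for dCas9+3A+HOXA5, which is 81.2 and 3.67 times the autosomal mean of the library. Within the copy, 97 CpGs had at least 5 reads in both libraries, with a share of C reads of 7.0% in Neg (6.73 to 7.28%) and 32.3% in dCas9+3A+HOXA5 (29.9 to 34.8%), so that the intervals did not overlap. The interval in Neg contained the mitochondrial 6.98%, whereas that in dCas9+3A+HOXA5 lay above the mitochondrial 4.25%. At the CpG at 566459 in the chromosome 1 sequence printed above, 73 of 1353 reads were C in Neg and 1 of 7 in dCas9+3A+HOXA5. Whether reads of mitochondrial DNA were placed on this copy was not tested. Adding its reads to those of chrM gave a ratio of relative mitochondrial depth of 1.07 between the libraries.

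Other stretches varied in depth between the libraries. The stretch on chromosome 11 from 10530699 to 10531007 had 1627 reads over 9 CpGs in Neg, with 6.76% C, and 7 reads in dCas9+3A+HOXA5, all of them C. A stretch on chromosome 5 from 134263311 to 134263558 was deep in both, with 3579 reads and 3.24% C in Neg and 2150 reads and 2.70% C in dCas9+3A+HOXA5. Where other stretches had under 20 reads in both libraries, 46 CpGs gave 47.0% C in Neg (42.7 to 51.5%) and 56.2% in dCas9+3A+HOXA5 (51.1 to 61.2%). The 63 CpGs of other stretches with 20 or more reads in a library gave 9.02% and 6.60%. The direction of this value rests on the 2 stretches with the most reads, both on chromosome 5, since the 48 CpGs outside them had 14.4% in Neg against 18.9% in dCas9+3A+HOXA5. At 26 CpGs with 20 or more reads in both libraries the shares were 7.27% and 4.12%, and at 37 with that depth in Neg alone 15.2% and 37.4%. The split at 20 reads was chosen after the values were seen.

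Promoters of genes for cytosolic ribosomal proteins, which are active in nearly all cells and usually free of methylation, served as nuclear CpGs of low methylation. Within 250 bp of the starts of 73 such genes, 220 CpGs had 4.17% C reads in Neg (61 of 1464, 3.26 to 5.32%) and 3.74% in dCas9+3A+HOXA5 (54 of 1444, 2.88 to 4.85%). The intervals, which cover counting error only, overlapped at a difference of -0.427 points, so that no difference was detected. In Neg this interval lay below the mitochondrial share of 6.98%, and in dCas9+3A+HOXA5 it contained the mitochondrial 4.25%. Both comparisons depend on the window in dCas9+3A+HOXA5: within 500 bp of the starts the shares were 4.34% in Neg but 5.79% in dCas9+3A+HOXA5, which turned the direction and lay above 4.25%. The C reads were concentrated at few sites, since 200 of the 220 CpGs had no C read in Neg and 201 had none in dCas9+3A+HOXA5. The intervals take each read as independent and do not measure this spread between CpGs, so where the mitochondrial share lies against them is a description only. Among nuclear 1-kb tiles, 7.52% in Neg and 6.38% in dCas9+3A+HOXA5 had a share below that of the mitochondrial molecule.

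**Figure D5:**
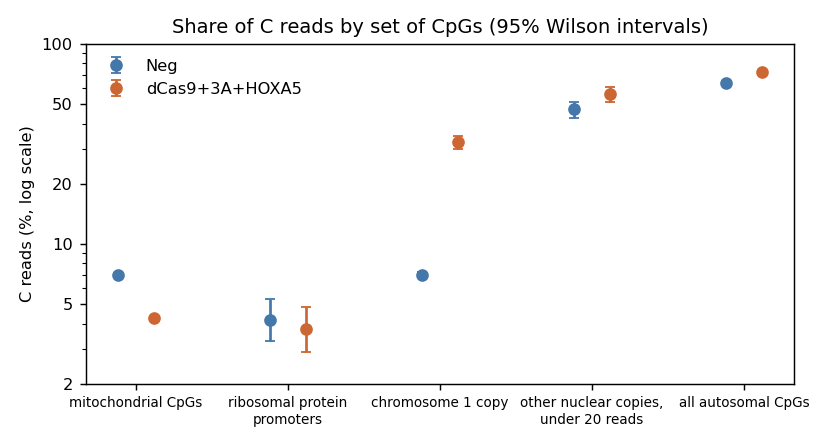
Share of C reads in percent on a log scale (vertical axis) for sets of CpGs (horizontal axis) in Neg (blue) and dCas9+3A+HOXA5 (orange), with 95% Wilson intervals. Mitochondrial CpGs are lower in dCas9+3A+HOXA5, while the chromosome 1 copy has 7.0% in Neg against 32.3% in dCas9+3A+HOXA5. The set named all autosomal CpGs, those with 5 or more reads in both libraries, has 64.2% and 72.5%. Of the other nuclear copies, only CpGs under 20 reads in both libraries are drawn (47.0% in Neg and 56.2% in dCas9+3A+HOXA5). That split was chosen after the values were seen. The 63 CpGs with 20 or more reads in a library (9.02% and 6.60%) are not drawn.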

How the data were processed

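Groups were taken from the sample titles, with 1 WGBS library each. The authors used BSMAP 2.90 for alignment to hg19 and its ratio module for the values of each CpG, which the files list once, on the plus strand. The handling of duplicates and of reads with several matches was not given in the sources used here. Used from the deposited columns were the counts of reads with C and with C or T, and, for the opposite strand, with G and with either G or A. The deposited estimated count is the C or T count corrected by the opposite strand, and the deposited fraction, with its bounds, is the C count over this estimated count.

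The unconverted share was the C count over the C or T count at CpGs covered by 5 or more reads in each library, the minimum that the study states, which all mitochondrial CpGs met. Fisher's exact test (two-sided) was run on all CpGs and on all 1-kb tiles with at least 5 such CpGs on chromosomes 1 to 22, X, Y and M, with Benjamini-Hochberg adjustment over each table and a threshold of 0.05. Intervals were 95% Wilson intervals. Nuclear copies were found by exact matches of 50 bases after conversion in the GRCh37 primary assembly, whose nuclear chromosomes have hg19 coordinates. Stretches on chromosome 8 were not considered for the printed sequences. The code was tested on simulated counts and planted copies. Python 3.11.15, scipy 1.17.1 and numba 0.67.0 were used.

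Gene classes of the mitochondrial genome were planned but not tested, since the annotation belongs to another mitochondrial sequence than that of the files. CpGs named singly were the 5 of highest lower interval bound in each library, the 5 of smallest p, and the 3 deepest and 3 shallowest. All other positions named singly, the A share of the opposite strand with its limit, the overlap of the highest CpGs, the windows of 250 bases, the spacing classes, the split of nuclear copies by depth, the separate account of the chromosome 1 copy and the printed sequences were chosen after their values were seen. The CpGs, lists and comparisons were chosen with earlier results of these data known.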

Additional observations from a re-analysis of the deposited data

Results flagged for a closer look

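The A share of the opposite strand, a readout outside the main comparison, was higher in dCas9+3A+HOXA5 than in the control library. Over 437 mitochondrial CpGs it was 0.942% in dCas9+3A+HOXA5 (6365 of 675726 reads) and 0.734% in Neg (5808 of 791350 reads), and the 95% Wilson intervals, which cover counting error only, did not overlap. The median over CpGs lay the other way, at 0.194% in dCas9+3A+HOXA5 and 0.244% in Neg. Autosomal CpGs also went the other way and had more A than mitochondrial CpGs, with 1.10% in dCas9+3A+HOXA5 and 1.44% in Neg. With 1 library per group the difference has no replicate check, and its cause was not tested.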

How the results depend on the processing

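The lower unconverted share in dCas9+3A+HOXA5 kept its direction without CpGs of possible C-to-T variants, at -2.80 points. It also did so under each weighting and denominator tried, with -2.67 points for the mean of the deposited fraction. The read minimum could hardly change it, since all 439 CpGs met 1 and 20 reads and 437 met 100. Calls depended on how many sites were tested. In place of the 17 pieces called lower, 500-bp pieces gave 30 lower and 1 higher and 2-kb pieces gave 9 lower. Of all tiles of 500 bp, 2.52% were called lower and 6.05% higher, and of those of 2 kb 2.08% and 6.7%. Of single CpGs, 279 were called lower and 9 higher with at least 20 reads, where fewer nuclear CpGs enter the adjustment. At that minimum, 6.38% of all 5780 CpGs tested were called lower and 8.13% higher. With at least 1 read, 102 were called lower and 1 higher, where 0.000776% and 0.00103% of all CpGs were called. Without possible C-to-T variants 1 was called higher, where 0.0232% of all CpGs were. Position 7131 was the higher call lost in both, and position 14160 the one kept. Under a stricter limit, a difference above 20 points with an adjusted p under 0.01 (Fisher's exact test), 0 pieces and 0 CpGs were called in either direction. For lower calls this says nothing of stability, since no piece and only 5 CpGs were high enough in Neg to be lower by that much. As higher, 2.53% of all 1-kb tiles and 0.00811% of all CpGs passed. Both higher calls were lost, with differences of 10.3 points at position 7131 and 4.32 points at position 14160.

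Mitochondrial depth relative to autosomes was 565 in Neg against 742 in dCas9+3A+HOXA5 by medians (ratio 1.31), 474 and 535 with opposite-strand reads, 385 to 556 and 449 to 643 over single autosomes (ratio 1.0 to 1.32), 498 in Neg with the chromosome 1 copy added (ratio 1.07), and 498 and 820 over autosomal CpGs listed in either library (ratio 1.65), the last pair of settings chosen after seeing the data. Promoters of ribosomal protein genes widened to 500 bp gave 4.34% in Neg but 5.79% in dCas9+3A+HOXA5, which turned the direction of their difference. The other nuclear stretches, 11% in Neg against 10.2% in dCas9+3A+HOXA5 as summed reads, gave 14.2% and 16.1% with at least 1 read and 9.69% and 6.73% with matches of 100 bases, so the direction of their difference changed with the setting. Leaving out mitochondrial CpGs by their match to the nuclear genome was not run, because the reference holds another mitochondrial sequence. No paired analysis was possible because a group held only 1 library, which also meant that none could be left out in turn.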
